A study of Rattus norvegicus with 19 samples.

Results

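The ligands, receptors, R-spondins, secreted antagonists and Axins of the Wnt pathway were examined in rat mammary carcinomas and normal mammary gland. Members were taken by gene symbol: Wnt, Fzd, Sfrp and Dkk genes with a number, and Frzb, Wif1, Lrp5, Lrp6, Axin1, Axin2, Lgr4, Lgr5, Ror1, Ror2 and Rspo1 to Rspo3. Of 50 such symbols, 44 were reached by a probe through its RefSeq accession, out of 15168 symbols reached in all; Fzd7, Fzd10, Sfrp1, Wif1, Wnt2 and Wnt3a were not analysed here. The 44 genes had 52 probes, and 8 genes had 2 probes.

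The groups were 13 mammary carcinomas, labelled as induced by radiation, and 6 normal mammary glands, each on its own single-colour Agilent array. All rats were female and of one cross, the F1 hybrid between Sprague-Dawley and Copenhagen rats. The shared protocol states that rats were untreated or received whole-body gamma rays of 4 Gy, at 0.5 Gy per minute, when 7 weeks old. Whether a given normal gland is from a treated or an untreated animal is not labelled, nor is the age at sampling, and nothing beyond separate sample codes says that each sample came from a different animal, so p-values measure the spread between these samples. Each value below is a log2 intensity relative to the 75th percentile of its array, which is 0, and a change is the mean of carcinomas minus the mean of normal glands on that scale.

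The carcinoma arrays were brighter, with 75th percentiles of 485 to 1428 intensity units, against 295.5 to 673 on the normal gland arrays. Carcinoma 7 was the dimmest carcinoma array, and 21 of the 44 members had a probe well above background there, against 33 to 40 on the other carcinoma arrays and 30 to 37 on normal gland arrays. Of all probe spots, 62.3% were well above background on carcinoma 7. That share was 72.0 to 84.2% on the other carcinoma arrays and 65.5 to 77.2% on normal gland arrays. The arrays lay on 3 slides holding 4, 4 and 5 carcinomas and 3, 2 and 1 normal glands. The markers of fat cells were far lower in the tumours: all 7 tested adipocyte genes fell, and their summed level, on a linear scale with the 75th percentile at 1, was 0.247 to 1.19 in carcinomas and 63.9 to 175 in normal glands. Of the endothelial markers 6 of 7 fell, with sums of 1.82 to 5.17 in carcinomas and 6.81 to 22.3 in normal glands. Summed luminal markers were 71.4 to 335 in carcinomas and 101 to 216 in normal glands, and summed basal markers were 8.88 to 100.3 in carcinomas, lowest in carcinoma 7, and 25.1 to 42.8 in normal glands. Of 9 tested fibroblast markers 2 fell and 7 did not pass, with a median change of -0.70. Their sums were 7.78 to 266 in carcinomas and 54.3 to 237 in normal glands. Skeletal muscle markers summed to 245 in normal gland 3, against 0.371 to 9.38 in carcinomas and at most 6.59 in the other normal glands. No tested adipocyte marker was below background on every carcinoma array. The part of these cell type markers in the results below was not tested, and in whole tissue fewer cells of a type and less RNA per cell cannot be told apart.

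Wnt proteins are secreted, lipid-bearing signals that bind Frizzled receptors. In the branch that runs through beta-catenin, Frizzled pairs with the co-receptor Lrp5 or Lrp6, the Axin complex that destroys beta-catenin is held off, and beta-catenin joins TCF/LEF factors on target genes such as Axin2. Other ligands, Wnt5a above all, act through Ror1 and Ror2 on cell shape and polarity. R-spondins, caught by Lgr4 and Lgr5, keep Frizzled at the cell surface and strengthen the response, whereas Sfrp proteins and Frzb bind the ligands and Dkk proteins bind the co-receptors. In the mammary gland Wnt4 and R-spondin are known as signals that pass between luminal, basal and stromal cells, and Wnt1 is a classic target of tumour virus insertion in mice.

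More members fell than rose, and most did not pass the test. Of the 40 members well above background on at least 6 arrays, Ror2 and Fzd3 rose, and Rspo1, Wnt7a, Lrp6, Wnt10a, Sfrp4, Frzb, Wnt1 and Fzd4 fell, by limma with an adjusted p under 0.05 over 12789 genes. That is 25.0% of the tested members, beside 23.0% of all genes tested. The 2 that rose are 5.00% of the members, beside 9.73% of all genes, and the 8 that fell are 20.0%, beside 13.2% of all genes. The 8 are counted by the brighter probe of each gene and include Lrp6, whose dimmer probe went the other way; without Lrp6, 7 of 39 members (17.9%) fell. The median change was -0.29 over the tested members and 0.01 over all genes, and 25 of the 40 changes lay below 0, against 49.2% over all genes. Wnt7a, Rspo1 and Lrp6 had adjusted p-values below 0.01. No member, by the brighter probe that stood for it, had all carcinomas on one side of all normal glands, against 0.540% of all genes with every carcinoma above and 1.93% with every carcinoma below.

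**Figure D1:**
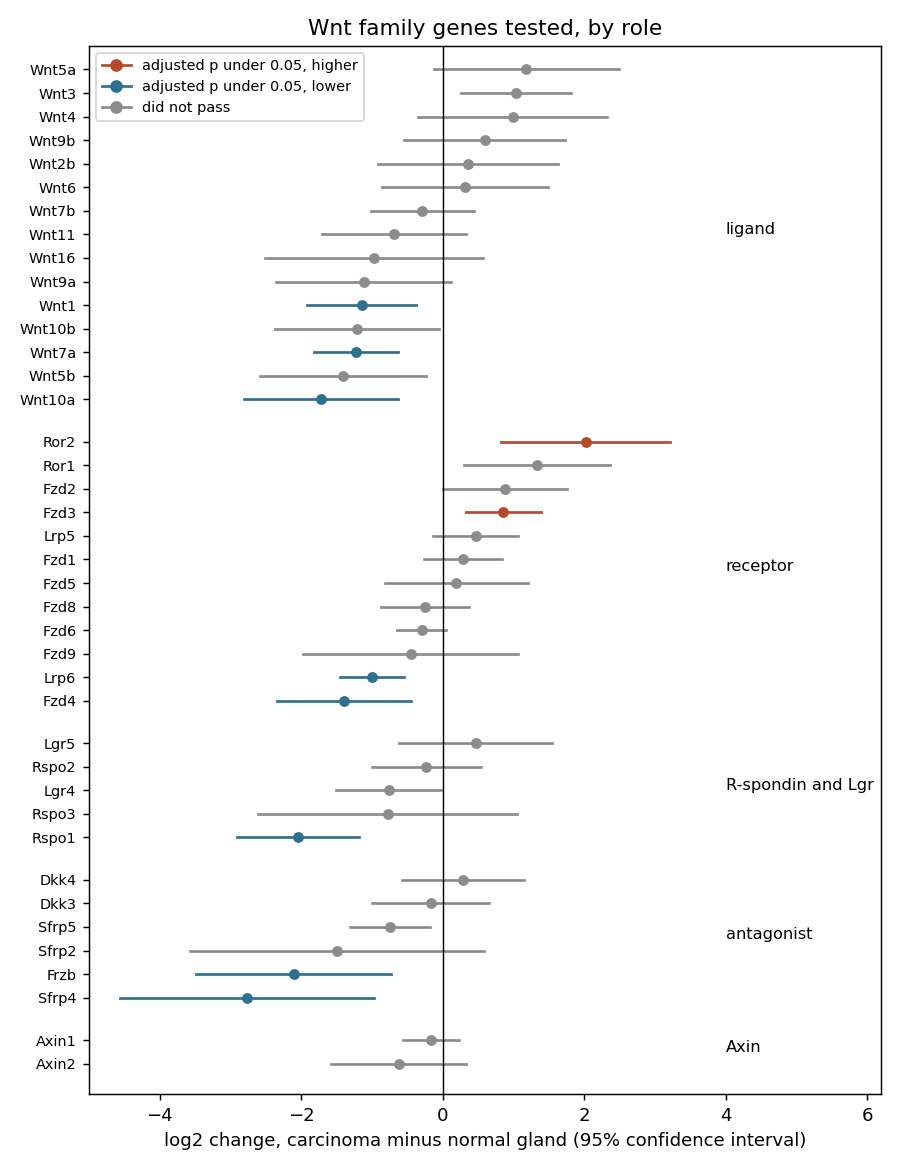
Log2 change of each tested member, carcinoma minus normal gland (horizontal axis), grouped by role; points are estimates from 13 carcinomas and 6 normal glands and lines are 95% confidence intervals. Ror2 and Fzd3 are the 2 genes past the threshold on the right of 0, and 8 genes past it lie on the left.

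By role, 3 of 15 tested ligands fell and 12 did not pass, with a median change of -0.69. Of 12 receptors and co-receptors, 2 rose, 2 fell (1 without Lrp6, whose probes disagree) and 8 did not pass, with a median of 0.24. Of the 5 R-spondin and Lgr genes 1 fell and 4 did not pass, with a median of -0.76. Of 6 secreted antagonists 2 fell and 4 did not pass, with a median of -1.12. The 2 Axins did not pass, with a median of -0.39. Of all genes tested, 9.73% rose and 13.2% fell. Each role holds few genes, and differences between roles were not tested.

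Starts of 3 of these genes are shown: Rspo1, the member with the smallest adjusted p among those that fell; Ror2, the same among those that rose; and Axin2, the textbook TCF/LEF target. Each runs from 250 bases before to 50 after the gene start in RefSeq on the GRCr8 build, printed along the gene's strand. Capitals mark the letters CTTTGA, the core of the TCF/LEF motif, searched on both strands (as TCAAAG on the other) with no other motif searched. Rspo1 lies at chr5:142536040-142536339, plus strand. Ror2 lies at chr17:12124499-12124798, plus strand. Axin2 lies at chr10:94398535-94398834, plus strand.
Rspo1: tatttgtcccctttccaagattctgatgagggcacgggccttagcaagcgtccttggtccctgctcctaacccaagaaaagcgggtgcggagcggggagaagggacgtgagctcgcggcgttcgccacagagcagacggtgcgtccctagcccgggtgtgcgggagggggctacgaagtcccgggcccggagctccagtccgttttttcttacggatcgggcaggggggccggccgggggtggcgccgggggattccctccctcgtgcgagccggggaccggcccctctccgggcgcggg
Ror2: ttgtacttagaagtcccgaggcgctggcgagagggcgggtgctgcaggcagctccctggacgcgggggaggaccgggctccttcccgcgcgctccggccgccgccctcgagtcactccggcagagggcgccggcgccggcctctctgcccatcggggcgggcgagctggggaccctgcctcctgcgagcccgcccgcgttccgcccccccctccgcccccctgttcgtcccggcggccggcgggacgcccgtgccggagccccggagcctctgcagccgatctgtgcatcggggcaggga
Axin2: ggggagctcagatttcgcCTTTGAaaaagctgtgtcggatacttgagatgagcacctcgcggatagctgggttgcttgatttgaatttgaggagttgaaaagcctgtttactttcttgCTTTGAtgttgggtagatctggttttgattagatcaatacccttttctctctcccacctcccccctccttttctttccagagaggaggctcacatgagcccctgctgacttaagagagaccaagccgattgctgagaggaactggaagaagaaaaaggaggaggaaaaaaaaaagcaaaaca
The Axin2 stretch held 2 copies, and those of Rspo1 and Ror2 held none. Of 29 members with a start in the RefSeq table, 3 (10.3%) held the letters: Axin2, Dkk1 and Wnt8a. Over all 27457 starts the share was 15.9%. The member starts were rich in G and C, with a median of 65.3% and 24 CpG pairs, against 52.3% and 7 over all starts. A match is a run of letters only, and a missing one says nothing of the factor.

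Among the ligands, Wnt7a, Wnt10a and Wnt1 fell. Wnt7a, known as a female reproductive tract signal, had a lowest, median and highest value of -4.08, -3.25 and -2.67 in carcinomas, against -3.08, -2.06 and -1.31 in normal glands. In 9 carcinomas it lay below every normal gland, while the other 4 lay within their range. The change was -1.22 ± 0.29 (SE, n = 13 and 6; adjusted p = 0.00503). Within slides 1, 2 and 3 it was -1.73, -0.70 and -1.34.

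Wnt10a, a ligand of skin, tooth and breast development, had values of -6.28, -3.57 and -1.03 (lowest, median, highest) in carcinomas, against -2.84, -1.56 and -0.97 in normal glands. The groups overlapped: carcinoma 7 was lowest, carcinoma 12 reached the top of the normal range, and 9 carcinomas lay below all normal glands. The value in carcinoma 7 lay under the lowest signal measured there as well above background. The change was -1.72 ± 0.52 (adjusted p = 0.0233), and it lost the call without normal gland 3 (0.0591) and without normal gland 4.

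Wnt1, the mouse mammary oncogene, had values of -2.93, -1.94 and -0.77 in carcinomas, against -1.87, -0.95 and 0.72 in normal glands. Normal glands 2 and 3 stood above the rest, and 8 carcinomas lay below all normal glands. The change was -1.14 ± 0.37 (adjusted p = 0.0305). It lost the call when normal gland 2 (adjusted p = 0.114) or normal gland 3 (0.112) was left out, also without normal gland 1, and within slide 3, with its single normal gland, it was 0.03.

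**Figure D2:**
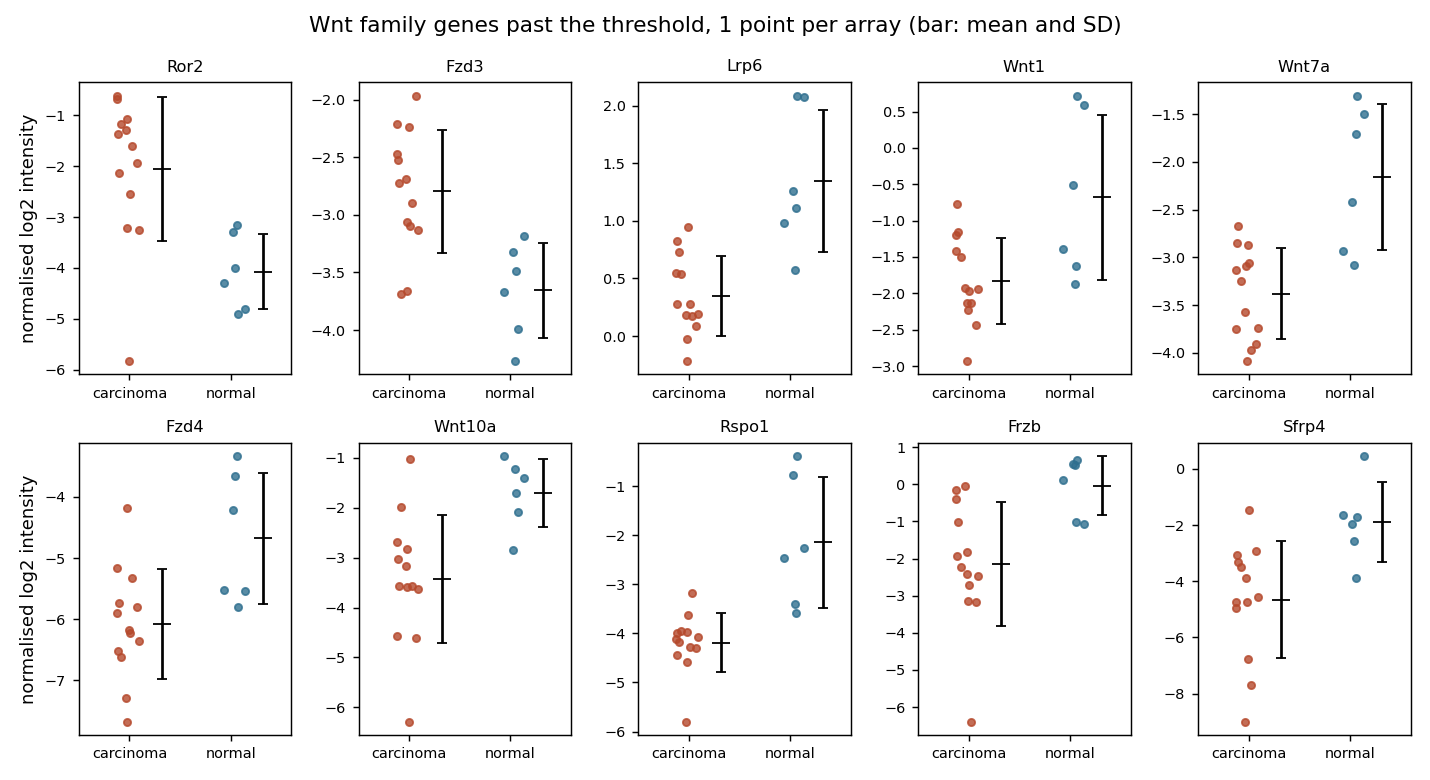
Normalised log2 intensity (vertical axis) of the 10 members past the threshold, one panel per gene, with carcinomas left and normal glands right; each point is an array, and the black bar is the mean and SD. In every panel the groups overlap, by 1 carcinoma in Rspo1 and by more in the others.

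Wnt4 and Wnt5a were brighter in most carcinomas but did not pass, and a single array set that outcome. Wnt4, known in mice as the progesterone-induced ligand of ductal side branching, had values of -3.89, 0.81 and 2.28 in carcinomas, against -1.54, -0.46 and 0.60 in normal glands. In 8 carcinomas it lay above every normal gland, and carcinoma 7 alone lay below them all. The change was 0.99 ± 0.64 (adjusted p = 0.284), and without carcinoma 7 it was 1.36 (adjusted p = 0.0181).

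Wnt5a, the main ligand of the Ror receptors, had values of -6.12, -1.93 and 0.10 in carcinomas, against -4.54, -3.33 and -2.33 in normal glands. In 9 carcinomas it lay above every normal gland, with carcinoma 1 highest, and carcinoma 7 again lay below them all. That value is under -4.61, the lowest signal measured as well above background on carcinoma 7, so how low it was is not known. The change was 1.19 ± 0.63 (adjusted p = 0.183), and without carcinoma 7 it was 1.52 (adjusted p = 0.0167). Within slide 2, which held carcinoma 7, the change was -0.49, against 1.70 and 2.06 within slides 1 and 3.

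The other ligands did not pass. Wnt3 missed by little, at 1.04 (adjusted p = 0.0505), although all 13 carcinomas lay within the normal range. Normal gland 1, at -4.07, was higher than every carcinoma. The Wnt3 probe was well above background on 12 carcinoma arrays and 1 normal gland array. With normexp background correction Wnt3 changed sign and passed as lower. Wnt5b, a close relative of Wnt5a, changed by -1.41 (adjusted p = 0.0755), with 8 carcinomas below all normal glands and carcinoma 1, at 0.19, above them. Wnt10b, a ligand that holds back fat cell formation, was at -1.21 (0.122), and Wnt9a at -1.12 (0.187). Wnt16 and Wnt11 were at -0.97 (0.371) and -0.69 (0.334). Wnt9b, Wnt2b and Wnt6 lay between 0.31 and 0.60, with adjusted p of 0.467 to 0.735. Wnt7b, a ligand of lung development, had values of -5.03, -3.69 and -2.50 in carcinomas, against -4.29, -3.45 and -2.37 in normal glands. Of the carcinomas 10 lay within the normal range and 3 below it, and the change was -0.29 ± 0.35 (adjusted p = 0.596). Wnt8b was well above background on 3 carcinoma arrays and no normal gland array, and Wnt8a on 1 normal gland array and no carcinoma array, so neither was tested.

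By position in RefSeq, Wnt6 lies beside Wnt10a, Wnt10b beside Wnt1 and Wnt9b beside Wnt3, with no other protein-coding gene between. By pair, Wnt6 changed by 0.31 and Wnt10a by -1.72, Wnt10b by -1.21 and Wnt1 by -1.14, and Wnt9b by 0.60 and Wnt3 by 1.04. Wnt10b was well above background on 5 carcinoma arrays and 1 normal gland array, and Wnt9b on 8 and 1. The changes of both therefore rest in part on background signal. The difference within a pair was not tested.

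Ror2 changed most among the receptors that rose. This receptor tyrosine kinase binds Wnt5a. It had values of -5.82, -1.62 and -0.62 (lowest, median, highest) in carcinomas, against -4.91, -4.15 and -3.16 in normal glands. In 10 carcinomas it lay above every normal gland, with carcinomas 1 and 5 highest. Carcinomas 3 and 6 lay at the top of the normal range. Carcinoma 7 was lowest, but under -4.61, the lowest signal measured as well above background on that array. Its place against the normal range, whose lowest value was -4.91, is therefore not known. The probe was well above background on 12 carcinoma arrays and 4 normal gland arrays.

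The Ror2 change was 2.02 ± 0.58 (adjusted p = 0.0161). Within slides 1, 2 and 3 it was 2.91, 1.00 and 1.48, and without carcinoma 7 it was 2.34. With array brightness as a covariate it was -0.49 (adjusted p = 0.77), and without normal gland 2 or 3 the adjusted p was 0.0509 and 0.0502. A dimmer Ror2 probe, well above background on 11 carcinoma arrays and no normal gland array, did not pass (adjusted p = 0.103 over all probes). It passed the filter through carcinoma arrays alone. Its bound against the lowest measurable signal was at least 1.07-fold, so a higher level in carcinomas is not shown by this probe.

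Ror1, the sister receptor, had values of -4.06, -1.28 and -0.21 in carcinomas, against -4.18, -2.94 and -1.72 in normal glands. In 10 carcinomas it lay above every normal gland, and carcinomas 3, 4 and 7 lay within the normal range. The change of 1.33 did not pass (adjusted p = 0.0566), and without carcinoma 7 it was 1.54 (adjusted p = 0.0128).

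Fzd3, a Frizzled known for axon guidance and tissue polarity, had values of -3.69, -2.72 and -1.96 in carcinomas, against -4.27, -3.58 and -3.18 in normal glands. In 11 carcinomas it lay above every normal gland, and carcinomas 2 and 13 lay within their range. The change was 0.86 ± 0.26 (adjusted p = 0.0204), and 0.63, 1.43 and 0.54 within slides 1, 2 and 3. With normexp background correction, which moved the median of all genes to -0.37, it was 0.02. Without normal gland 2 the adjusted p was 0.059, and the call was also lost without normal gland 5.

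Fzd4, the receptor of the retinal vessel signal Norrin as well as of Wnts, fell. It had values of -7.67, -6.17 and -4.19 in carcinomas, against -5.79, -4.87 and -3.34 in normal glands. Normal glands 1, 5 and 6 were highest, and 9 carcinomas lay below all normal glands. In normal glands 2, 3 and 4 the value lay below the lowest signal measured there as well above background. That count of carcinomas and the size of the Fzd4 change therefore rest in part on background signal. The probe was dim, reaching well above background on 6 of the carcinoma arrays and 3 of the normal ones, and the change was -1.40 ± 0.46 (adjusted p = 0.0326). It lost the call without normal gland 1, 5 or 6. Endothelial markers, given above, fell in the same tumours.

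Lrp6, a co-receptor that beta-catenin signalling needs, gave opposite results on its 2 probes. On the brighter probe it had values of -0.21, 0.28 and 0.95 in carcinomas, against 0.57, 1.18 and 2.09 in normal glands, and 10 carcinomas lay below all normal glands. On the dimmer probe the values were -1.30, -0.37 and 0.13 in carcinomas, against -2.15, -1.34 and -0.42 in normal glands, and 7 carcinomas lay above all normal glands.

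The brighter Lrp6 probe changed by -0.996 ± 0.22 (adjusted p = 0.00315) and the dimmer by 0.83 ± 0.25 (adjusted p = 0.0247 over all probes). Their mean changed by -0.08 (adjusted p = 0.757). No direction for the gene follows from the pair of probes, and why they differ was not tested.

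Fzd6, a receptor known for hair and skin polarity, showed the same kind of split. Its brighter probe had values of -1.71, -1.11 and -0.57 in carcinomas, against -1.07, -0.85 and -0.56 in normal glands, and changed by -0.30 (adjusted p = 0.203). Its dimmer probe had values of -2.52, -1.89 and -1.26 in carcinomas, against -3.62, -2.95 and -2.55 in normal glands. On that probe all 13 carcinomas lay above all 6 normal glands, a change of 1.13 ± 0.21 (adjusted p = 0.00134 over all probes); it was singled out after its values were seen.

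**Figure D3:**
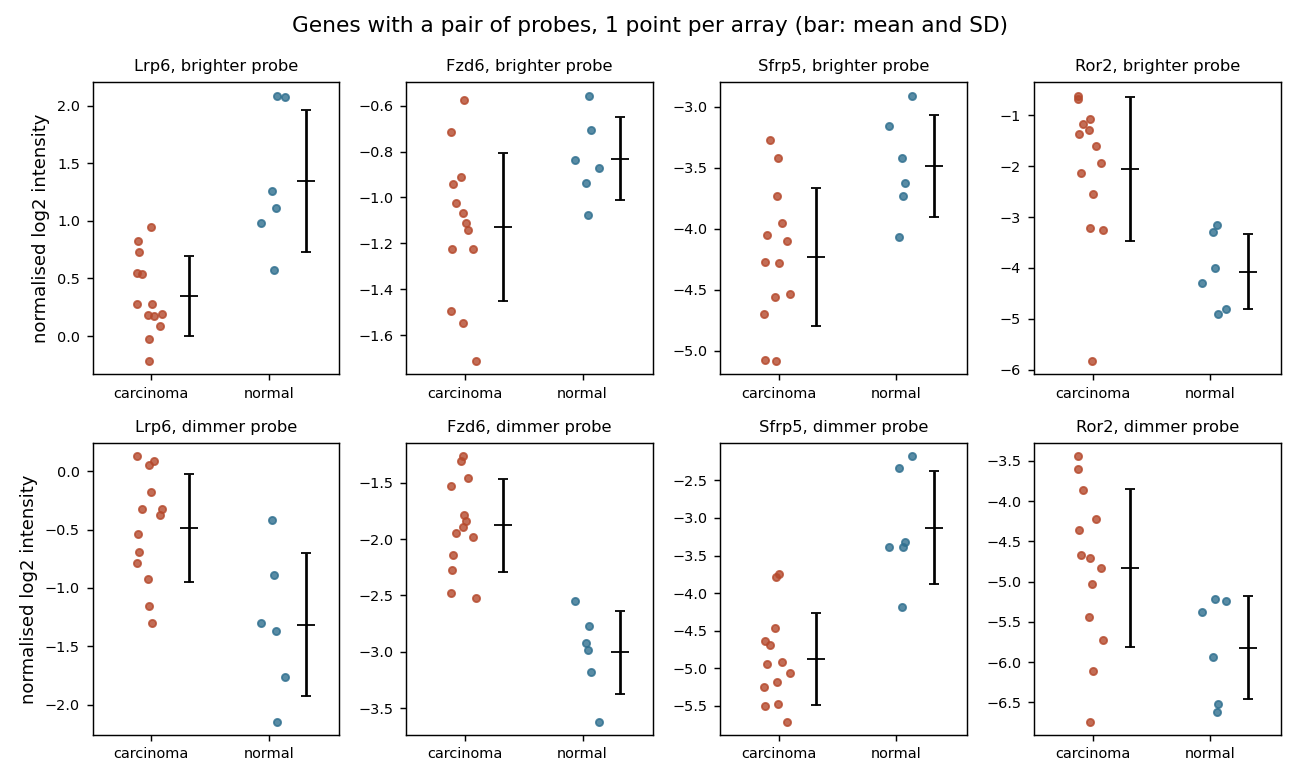
Normalised log2 intensity (vertical axis) of the brighter (top) and dimmer (bottom) probe of Lrp6, Fzd6, Sfrp5 and Ror2, with carcinomas left and normal glands right; each point is an array, and the black bar is the mean and SD. The probes of Lrp6 and of Fzd6 shift in opposite directions, and those of Sfrp5 and Ror2 in the same direction. The dimmer Ror2 probe did not pass and was well above background on no normal gland array.

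The remaining receptors did not pass. Fzd2 changed by 0.88 (adjusted p = 0.137), with 9 carcinomas above every normal gland. Lrp5, the other co-receptor, changed by 0.47 (0.259), Fzd1 by 0.28 (0.479), Fzd8 by -0.25 (0.59) and Fzd9 by -0.45 (0.703). Fzd9 was high in carcinoma 6 alone, at -0.90, against a carcinoma median of -5.88 and a highest normal gland of -2.77. Fzd5 was well above background on 6 carcinoma arrays and no normal gland array, too dim for a fold (adjusted p = 0.812).

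Rspo1 was the member with the smallest adjusted p. This R-spondin, known in mice as a hormone-responsive growth signal of the mammary gland, had values of -5.80, -4.10 and -3.18 in carcinomas, against -3.59, -2.37 and -0.39 in normal glands. In 12 carcinomas it lay below every normal gland, with carcinoma 11 lowest, and carcinoma 4 lay within their range. Normal glands 1 and 2 were highest, at -0.77 and -0.39.

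The Rspo1 change was -2.04 ± 0.41 (adjusted p = 0.00186), and -2.89, -0.83 and -1.06 within slides 1, 2 and 3. Rspo1, Wnt7a and the brighter Lrp6 probe passed in each fit that left out 1 array. Rspo1 passed at 0.0162 within slide 1, but not within slide 2 (0.287), within slide 3 (0.752) or with brightness as a covariate (0.294).

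Rspo3, a second R-spondin, split the carcinomas instead of shifting them. It had values of -6.31, -4.36 and 0.12 in carcinomas, against -3.72, -2.37 and -1.13 in normal glands. Carcinomas 1, 3, 6 and 11, at 0.12, -0.06, -0.14 and -0.63, lay above every normal gland, 8 lay below every normal gland and 1 lay between. The SD was 2.24 in carcinomas and 0.88 in normal glands, and the mean change of -0.78 did not pass (adjusted p = 0.566).

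Lgr4, the widely used R-spondin receptor, had values of -0.72, 0.13 and 2.06 in carcinomas, against 0.25, 1.25 and 1.83 in normal glands. Carcinoma 7 was highest, 7 carcinomas lay below all normal glands, and the change of -0.76 did not pass (adjusted p = 0.136; without carcinoma 7, -0.90 and 0.0427). Lgr5, a stem cell marker of gut and skin, had values of -8.22, -5.11 and -3.88 in carcinomas, against -6.65, -6.25 and -4.75 in normal glands. It was well above background on 9 carcinoma arrays and 1 normal gland array, and 4 carcinomas lay above all normal glands. The Lgr5 change was 0.47 ± 0.52 (adjusted p = 0.56), measured against mostly background signal. With normexp background correction Lgr5 changed sign and passed as lower. A second Lgr5 probe, well above background on 4 carcinoma arrays and no normal gland array, was too dim for the test. Its mean was -6.33 in carcinomas and -6.25 in normal glands. Rspo2 was dim, well above background on 6 carcinoma arrays and 1 normal gland array, and changed by -0.23 (0.7).

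Of the secreted antagonists, Sfrp4 and Frzb fell and varied widely among carcinomas. Sfrp4, a stromal Wnt binder, had values of -8.99, -4.56 and -1.45 in carcinomas, against -3.90, -1.85 and 0.44 in normal glands. Carcinomas 4, 7 and 11 were lowest, 7 carcinomas lay below all normal glands and 6 within their range. Normal gland 3, the gland with the high muscle markers, was highest. The Sfrp4 probe was well above background on 10 carcinoma arrays and 6 normal gland arrays. On carcinomas 4, 7 and 11 it lay below the lowest signal measured there as well above background. The size of its change therefore rests in part on background signal. The change was -2.77 ± 0.86 (adjusted p = 0.0261), and -3.35, -3.42 and -0.25 within slides 1, 2 and 3. Without normal gland 3 it was -2.30 (adjusted p = 0.0921), and without normal gland 2 it was -2.73 (0.0583).

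Frzb, a Wnt binder first known from cartilage, had values of -6.39, -2.24 and -0.05 in carcinomas, against -1.07, 0.32 and 0.66 in normal glands. Carcinoma 4 was far the lowest, 9 carcinomas lay below all normal glands, and carcinomas 1, 5, 8 and 11 lay within their range. Frzb was well above background on 12 carcinoma arrays, and its value in carcinoma 4 lay below the lowest signal measured there as such. The change was -2.11 ± 0.66 (adjusted p = 0.0275), and -1.35, -4.10 and -0.50 within slides 1, 2 and 3. Without normal gland 2 the adjusted p was 0.0735, and it also lost the call without normal gland 1 or 5.

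Sfrp2, another stromal Wnt binder, spread most of all members. It had values of -7.82, -3.60 and 1.11 in carcinomas, against -3.04, -1.81 and -1.04 in normal glands. Carcinoma 11 was highest and carcinoma 4 lowest, 2 carcinomas lay above and 7 below all normal glands. Sfrp2 was well above background on 10 carcinoma arrays and 6 normal gland arrays. In carcinomas 4, 6 and 7 it lay below the lowest signal measured there as well above background. Its spread therefore rests in part on background signal. The SD was 2.59 in carcinomas and 0.74 in normal glands, and the change of -1.49 did not pass (adjusted p = 0.301).

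Sfrp5, known in mice as an antagonist made by fat cells among others, had a lower mean in carcinomas on both probes. The brighter had values of -5.08, -4.27 and -3.27 in carcinomas, against -4.07, -3.52 and -2.91 in normal glands, a change of -0.75 (adjusted p = 0.0514). On the dimmer the values were -5.71, -4.95 and -3.74 in carcinomas, against -4.19, -3.35 and -2.18 in normal glands. There 11 carcinomas lay below all normal glands, a change of -1.74 ± 0.32 (adjusted p = 0.0012 over all probes), and the mean of both probes passed (-1.25, adjusted p = 0.000612).

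Dkk3, a divergent Dickkopf protein, changed by -0.17 (adjusted p = 0.799). Dkk4 was well above background on 9 carcinoma arrays and no normal gland array, too dim for a fold (adjusted p = 0.654). Dkk2 reached that level on 3 carcinoma arrays only, and Dkk1, the best known inhibitor of Lrp6, on no array with either of its probes.

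Axin2, the feedback target read as a sign of beta-catenin activity, had values of -6.40, -3.86 and -2.03 in carcinomas, against -4.23, -3.37 and -2.57 in normal glands. Carcinoma 3 alone lay above every normal gland, and 5 carcinomas, carcinoma 7 lowest, lay below. In carcinoma 7 it lay under the lowest signal measured there as well above background, so how low it was is not known. The change was -0.62 ± 0.46 (adjusted p = 0.353). Axin1, the scaffold of the destruction complex, had values of 0.56 to 1.62 in carcinomas, against 0.73 to 1.66 in normal glands, and changed by -0.16 (adjusted p = 0.58).

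**Figure D4:**
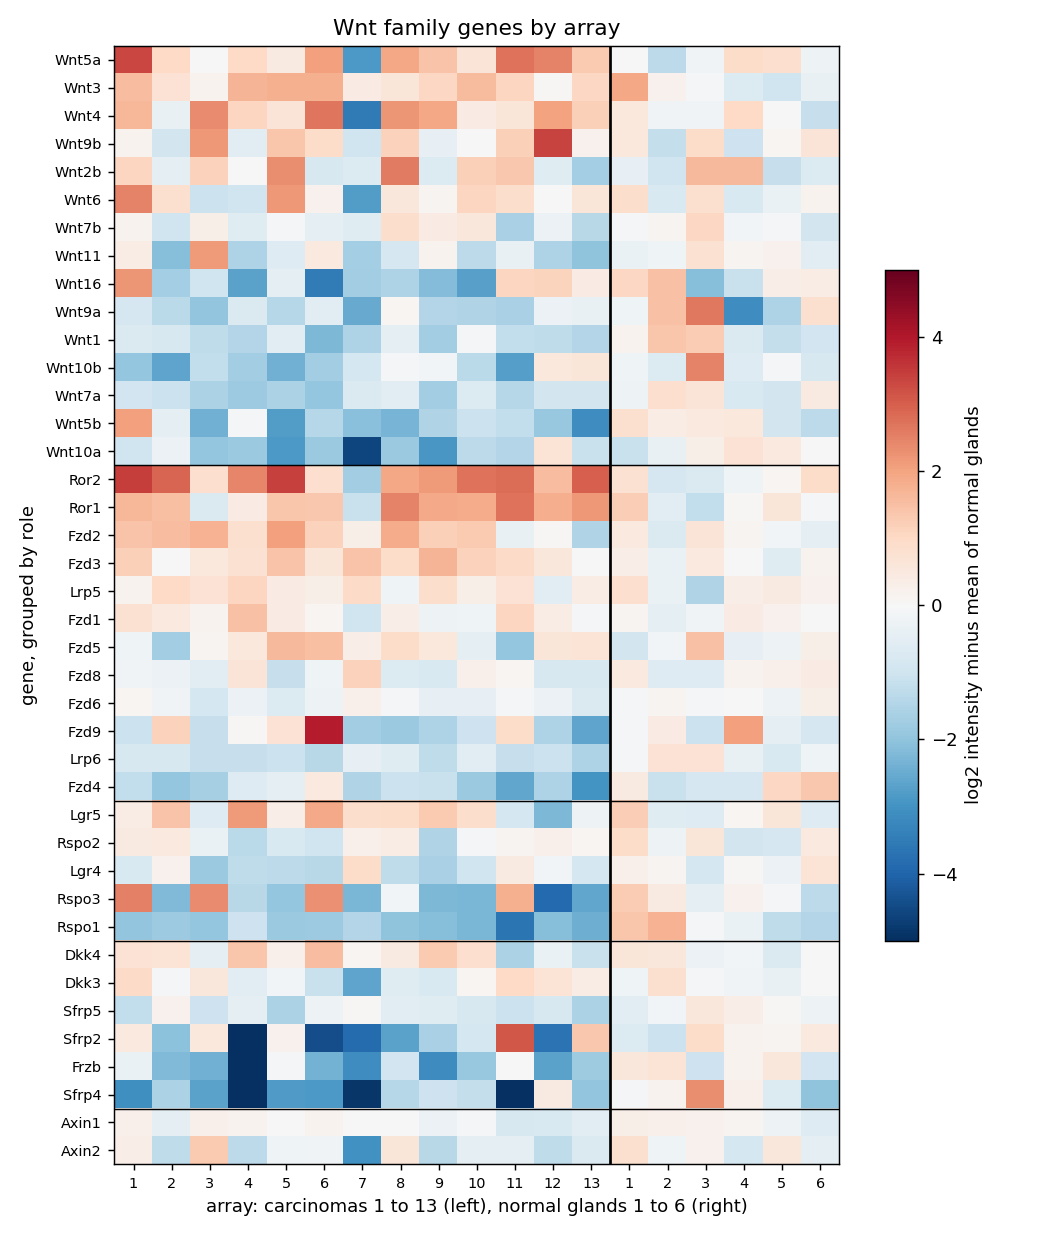
Log2 intensity of each tested member (rows, grouped by role) on each array (columns, carcinomas 1 to 13 left of the line and normal glands 1 to 6 right of it), minus the mean of the 6 normal glands; colours stop at 5 in either direction. Rspo3 is high in carcinomas 1, 3, 6 and 11 and low in most others, Fzd9 is high in carcinoma 6, and carcinoma 7 is low in Wnt4, Wnt5a, Wnt10a and Axin2.

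The members varied more among carcinomas than among normal glands. The SD was larger in carcinomas for 30 of 40 tested members (75%), beside 61.6% of all genes. The median SD of the members was 1.04 in carcinomas and 0.78 in normal glands, against 0.60 and 0.52 over all genes. Of the 40 members, 19 were well above background on all 19 arrays, so these spreads rest in part on background signal. The members were not matched to all genes in brightness, and its part in the spread was not tested. Single tumours stood out in different genes: carcinoma 3 was highest in Wnt11, at 0.06 against a carcinoma median of -2.93, carcinoma 12 in Wnt9b, at -2.29 against -5.46, and carcinoma 1 in Wnt16, at -0.57 against -4.34.

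Across the 13 carcinomas, 8 pairs of genes were compared by permutation tests with 100000 resamples. The pairs were chosen with earlier results of these data known, which the p-values do not allow for. Wnt4 followed Pgr, the progesterone receptor gene, with a Pearson r of 0.84 (p = 0.00029, adjusted p = 0.00232) and a Spearman rho of 0.69 (p = 0.011, adjusted p = 0.0884). Pgr was -5.99, -2.32 and 0.15 at its lowest, median and highest carcinoma, and carcinoma 7 was lowest in both genes while carcinoma 6 was highest in both. Without these 2, the farthest in Pgr, r was 0.64 (permutation p = 0.0352, adjusted p = 0.281), so the relation rests in part on them. The Pgr value of carcinoma 7 lay under -4.61, the lowest signal measured there as well above background. How low Pgr was in that carcinoma is therefore not known, and r = 0.84 rests in part on background signal. Among the 10 carcinomas with number codes r was 0.91 (adjusted p = 0.00112), and among the 9 scanned on the first day 0.68 (adjusted p = 0.186).

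Axin2 followed Wnt4 with r = 0.74 (permutation p = 0.00608, adjusted p = 0.0243) and rho = 0.52 (p = 0.0702, adjusted p = 0.281). Without carcinomas 7 and 2, the farthest in Wnt4, r was 0.34, so this relation rests on those samples. Ror2 against Wnt5a had r = 0.68 (permutation p = 0.0262, adjusted p = 0.0699) and rho = 0.29 (p = 0.343). Without carcinomas 7 and 1 r was -0.13. In carcinoma 7, Axin2, Wnt5a and Ror2 each lay under the lowest signal measured there as well above background. Frzb against the collagen gene Col1a1 had r = 0.53 (permutation p = 0.0569, adjusted p = 0.114). The other 4 pairs, Axin2 with Lgr5 and with Lef1, Sfrp2 with Col1a1 and Lgr5 with the basal keratin gene Krt14, had r between -0.17 and 0.22 and adjusted p of 0.751 to 0.856 by permutation. Each slide held too few carcinomas for a value of its own.

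**Figure D5:**
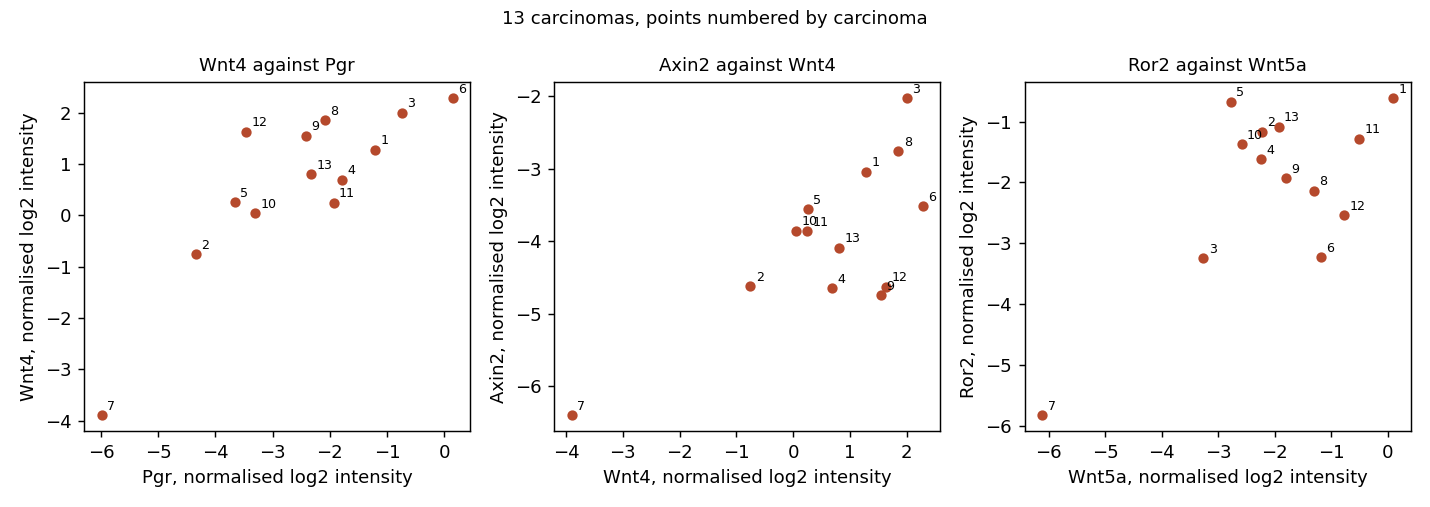
Normalised log2 intensities of 3 pairs of genes over the 13 carcinomas, each point a carcinoma with its number: Wnt4 against Pgr, Axin2 against Wnt4 and Ror2 against Wnt5a. Carcinoma 7 lies at the lower left of every panel.

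Other genes of the pathway were read from the same fit. Of 73 names listed, 55 were tested, of which 10 rose, 5 fell and 40 did not pass, with a median change of 0.39. Those that rose are 18.2% of the tested genes, beside 9.73% of all genes, and those that fell 9.09%, beside 13.2%. Vangl2, a membrane core protein of planar cell polarity, rose, with values of -5.18, -3.00 and -2.20 in carcinomas, against -7.04, -6.49 and -5.12 in normal glands. Carcinoma 7 alone, at the lowest value, overlapped the normal range, and the fitted change was 3.15 ± 0.39 (adjusted p = 1.22e-05). The Vangl2 probe was well above background on 12 carcinoma arrays but only 2 normal gland arrays, so the size of its change is measured against mostly background signal. The same holds for Kremen1, a Dkk receptor, at 11 carcinoma and 2 normal gland arrays, with a fitted change of 1.43 ± 0.40 (adjusted p = 0.0141). Daam1, a formin that acts downstream of Dishevelled and was well above background on all arrays, changed by 1.37 ± 0.22 (adjusted p = 0.000238).

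Mmp7, a secreted protease and TCF/LEF target of gut tumours, fell, with values of -3.77, -0.10 and 4.29 in carcinomas, against 0.82, 4.08 and 5.12 in normal glands. The change was -3.96 ± 0.90 (adjusted p = 0.00405). Ccn5, a Wnt1-induced matrix protein, had values of -8.69, -5.34 and -0.63 in carcinomas, against -3.30, -0.92 and 0.11 in normal glands. Its change was -3.92 ± 0.78 (adjusted p = 0.00154). Ccn5 was well above background on 8 carcinoma arrays and 6 normal gland arrays, so this size rests in part on background signal. Tmem88, a Dishevelled-binding inhibitor, fell by 1.55 ± 0.45 (adjusted p = 0.019). Among core members, Ctnnb1 (beta-catenin) changed by 0.40 (adjusted p = 0.287), Apc by 0.62 (0.138), Lef1 by 0.89 (0.54, with 1 normal gland value missing) and Ccnd1 (cyclin D1) by 1.08 (0.0582).

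Of the 10 members past the threshold, each kept its direction within all 3 slides except Wnt1, given above. Within slide 1 Lrp6, Rspo1, Sfrp4, Wnt1 and Wnt7a passed, and within slides 2 and 3, where the limma fit rests on 2 and 1 normal glands, 0 members passed and 10 and 6 had an unadjusted p under 0.05. With array brightness as a covariate 0 members passed and 8 had an unadjusted p under 0.05; brightness differed between the groups, as given above. Without carcinoma 7, 6 members rose (Ror1, Wnt3, Wnt4 and Wnt5a joining Ror2 and Fzd3) and 10 fell (Lgr4 and Sfrp5 joining). Leaving out normal gland 2 left 0 that rose and 5 that fell, with 15 at an unadjusted p under 0.05, and leaving out normal gland 3 left 1 and 5.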

How the data were processed

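RNA of 13 carcinomas and 6 normal glands was hybridised to 19 Agilent single-colour (Cy3) arrays of 30367 probes, and per the file headers Agilent Feature Extraction (version 10.7.3.1) quantified the spots. The deposited scanner files hold each spot's intensity, background-subtracted and detrended by that software per the file headers, and its flags. The authors also deposited a log2 table set to each array's 75th percentile. It followed the log2 scanner intensities (Pearson r at least 0.998) and was used as an alternative.

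Here the log2 processed intensity minus the array's 75th percentile was used. Control spots were dropped, uneven or outlying spots (403 to 1069 per array) set missing, and spots of a probe averaged. For each array, a probe was taken as well above background if a share of 0.5 or more of its remaining spots carried that flag. Probes well above background on at least 6 arrays were kept. The probe of highest mean stood for a gene. Names came from RefSeq accessions, and 18005 probes had a symbol. The groups were compared with limma 3.58.1 in R 4.3.3, with group as the only term, an intensity trend, a 2-sided moderated test and Benjamini-Hochberg adjustment over 12789 genes at 0.05. The fit was tested on simulated data with known changes. It called 48% of the changes of 1 on the log2 scale and 85% of those of 2. Of all genes it called there, 7.64% were false. Marker genes were summed as linear intensity ratios to the 75th percentile. A bound ("at least") sets the bright group's mean against the lowest signal among probes well above background on each dim array, or the probe's own where higher. The normexp alternative (offset 50) used median spot intensities in place of the planned mean ones. Other alternatives were quantile normalization, other filters and probe choices, slide, scan day, sample code and brightness terms, and each array left out. Intensities of arrays have no read depth, so the number of arrays limits precision. Correlations with Sfrp1 were not run. Full statistics were given for members past the threshold and for Wnt4, Wnt5a, Wnt7b, Wnt10a, Lgr5, Axin2, Rspo1, Ror2 and Lrp6, and for the 3 largest called changes in each direction of the other pathway genes. The members, lists, pairs and names were chosen with earlier results of these data known.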

Additional observations from a re-analysis of the deposited data

Results flagged for a closer look

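In 40 tested members, the 6 normal glands were searched for a gland far from the others (gap over range above 0.625 by Dixon's test), which chance alone finds in about 1 of 20 groups. Such a gland was found in 2 members. Normal gland 2 was at 1.89 in Dkk3, against 0.73 to 1.08 in the other normal glands. Normal gland 3 was at -3.34 in Wnt10b, against -6.60 to -5.91 in the others; it is the gland whose skeletal muscle markers summed to 245.

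Dkk2 and Wnt8b, dim members left out of the test, were each well above background on 3 carcinoma arrays and on no normal gland array. These counts do not show a higher level: the median was -6.89 in carcinomas and -6.82 in normal glands for Dkk2, and -7.08 in carcinomas and -7.10 in normal glands for Wnt8b. The lowest signal measured as well above background was -6.81 to -4.61 on carcinoma arrays and -5.57 to -4.55 on normal gland arrays.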

How the results depend on the processing

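Of the 10 members past the threshold, Rspo1 and Wnt7a passed in 33 of 36 alternatives. The exceptions were the fits within slides 2 and 3 and the fit with array brightness as a covariate. Over all 40 tested members, 1285 of 1431 alternative values kept direction and side of the threshold. Few normal glands, dim probes and probe pairs that disagree limit these results.

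The count of members that rose (2) was 1 with normexp, 4 with quantile normalization, 4 with slide as a block, 4 with sample code as a block, 0 within each of slides 1, 2 and 3 and 0 with brightness. The count that fell (8) was 21 with normexp, 5, 0 and 0 within slides 1, 2 and 3, and 0 with brightness. By limma at an unadjusted p under 0.05, 10, 10, 6 and 8 members lay past the threshold within slides 1, 2 and 3 and with brightness. The other pathway genes that rose (10) numbered 4, 0 and 0 within the slides and 0 with brightness. Those that fell (5) numbered 15 with normexp, 1, 1 and 0 within the slides and 0 with brightness. Of all genes, 1244 rose, against 153, 45 and 0 within the slides and 11 with brightness, and 1692 fell, against 5263 with normexp, 534, 267 and 31 within the slides and 174 with brightness. The cause was not tested, except that within slides fewer arrays enter.

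Leaving out 1 array gave 0 to 6 members that rose and 5 to 10 that fell, 5 to 13 and 2 to 6 of the other pathway genes, and 664 to 1440 and 1087 to 1830 of all genes. The lowest counts of all genes came without normal glands 2 (698 rose, 1122 fell) and 3 (664 and 1087). Counts of members that rose moved most without carcinoma 7 (6), carcinoma 3 (4) and normal glands 1 (4), 2 (0), 3 (1) and 5 (1). The other pathway genes that rose numbered 5 without normal gland 2, and those that fell numbered 2 without normal gland 3.

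Samples of both groups carry numbers. Over 6 same-numbered pairs, deviations from the group means correlated at -0.05 to 0.11. Whether the numbers pair the samples is not settled by this, since a tumour and a gland of the same animal need not deviate together. With the replicate number as a block, 2 members rose and 7 fell, 6 of them shared with the fit without it, and 16 of the other pathway genes rose and 1 fell. Under this block Axin1 was 0.070, Fzd9 0.60 and Rspo3 0.27, opposite in sign to the values above.

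Other changes of sign in single members were as follows. With brightness: Axin1 0.11, Fzd1 -0.55, Fzd6 0.088, Fzd8 0.34, Ror1 -0.45, Ror2 -0.49, Sfrp5 0.28, Wnt4 -1.06, Wnt5a -0.92, Wnt6 -1.51, Wnt7b 0.42, Wnt9b -0.63 and Wnt10b 0.015. With normexp: Dkk4 -0.82, Fzd5 -0.83, Lgr5 -0.75, Wnt2b -0.62, Wnt3 -0.60, Wnt6 -0.16 and Wnt9b -0.53. Of these, Dkk4, Fzd5, Lgr5, Wnt2b and Wnt3 passed as lower by limma (adjusted p under 0.05). Within slide 1: Dkk3 0.15, Fzd5 -0.17, Fzd9 0.16 and Sfrp2 0.067. Within slide 2: Axin1 0.062, Fzd1 -0.22, Fzd8 0.0038, Wnt2b -0.78, Wnt5a -0.49, Wnt6 -0.31 and Wnt9a 1.02. Within slide 3: Axin1 0.20, Dkk3 0.31, Dkk4 -0.35, Fzd5 -0.33, Lrp5 -0.10, Wnt1 0.033, Wnt7b 0.53 and Wnt10b 0.18. Fzd6 was 0.41 as the mean of its probes, and Dkk3 ranged over single arrays left out to -0.27 at its lowest, without carcinoma 11, and 0.033 at its highest, without carcinoma 7.

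For the correlations, r of Wnt4 with Pgr lost the call on the first scan day (0.68), without the 2 farthest carcinomas (0.64), without carcinoma 7 (0.72, chosen after seeing the data) and with normexp (0.65). Axin2 with Wnt4 did so likewise (0.63, 0.34, 0.45 and 0.39). The sign turned for Ror2 with Wnt5a without the 2 farthest (-0.13), for Sfrp2 with Col1a1 on the first scan day (-0.33), for Lgr5 with Krt14 on the first scan day (0.71) and without carcinoma 7 (0.051), for Axin2 with Lgr5 on the first scan day (0.12), and for Axin2 with Lef1 without the 2 farthest (0.066), without carcinoma 7 (0.088) and with quantile normalization (0.023). Frzb with Col1a1 passed among the number-coded carcinomas (0.72), and Lgr5 with Krt14 passed by rank on the first scan day (Spearman rho 0.88, adjusted permutation p = 0.0246).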

Other observations

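Milk protein genes, listed among the cell type markers, summed to 0.547 to 2464 in carcinomas, on a linear scale with the 75th percentile at 1, and to 1145 to 3185 in normal glands. Carcinoma 7, the array lowest in Wnt4, Wnt5a, Ror2 and Axin2, had the highest milk sum among carcinomas and the lowest Krt14, at -2.88 against 1.36 to 4.14 in the other carcinomas. Macrophage markers summed to 5.45 to 42.6 in carcinomas and 18.0 to 40.4 in normal glands, and 3 of 6 tested fell. Lymphocyte markers summed to 0.253 to 1.74 in carcinomas and 0.685 to 10.1 in normal glands, and all 5 tested fell. Schwann cell markers summed to 2.99 to 14.8 in carcinomas and 9.37 to 17.6 in normal glands, and 3 of 5 tested fell.

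Of the other pathway genes, 7 more rose than the 3 named: Tle2 (1.32), Bcl9 (1.13), Pygo1 (0.94), Wls (0.89), Gsk3b (0.87), Csnk1d (0.75) and Vangl1 (0.55). Bcl9 and Pygo1 are partners of beta-catenin on its target genes, Tle2 is a repressor of them, Wls carries Wnt ligands out of the cell, and Gsk3b and Csnk1d are kinases. Dact2, a Dishevelled partner, fell by 1.15 and Rhoa, a small GTPase of cell shape, fell by 0.50.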
